A study of Mus musculus with 8 samples.

Results

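Erythroid genes were followed in RNA from cells sorted as pericytes or smooth muscle cells, which are not of the red cell lineage. They were Hba-a1, Hba-a2, Hbb-b1, Hbb-b2 and Alas2, the 5 rows with these symbols among the 37979 genes of the expression table, and all 5 were among the 27414 genes above 0 in at least 1 library. Pericytes, the mural cells of small blood vessels, and smooth muscle cells (SMCs) were sorted from digested hindlimb muscle of Ai14+/-;SM22α-Cre+ mice of both sexes, 3 to 4 months old, with 4 libraries for each cell type and the replicate numbers 1 to 4 in both. In these mice Cre recombinase under the SM22α promoter turns on the red protein tdTomato for good in every cell that has used the promoter, so the marker follows past as well as present promoter use. Both groups carried the same alleles, with no treatment named, stained for PDGFRβ and were negative for CD31 and CD45. Pericytes lacked tdTomato and SMCs had it. The mice were flushed with saline, the digest passed through a red cell lysis step before staining, and several sorts were pooled for each library, so the p-values below measure the spread between pooled libraries. All 8 libraries carry the same batch label.

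Hemoglobin, the oxygen carrier of red cells, is built from alpha-globin and beta-globin chains, each holding a heme group. Red cell precursors make both chains in large amounts, and the immature red cell that leaves the marrow has lost its nucleus but still holds globin mRNA for a short time. Hba-a1 and Hba-a2 encode the adult alpha chain, Hbb-b1 and Hbb-b2 encode adult beta chains, and Alas2 encodes the erythroid form of 5-aminolevulinate synthase, the enzyme that opens heme synthesis. In muscle these transcripts are known chiefly from blood, since pericytes and SMCs are not known as hemoglobin makers.

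The 4 globin genes are paired copies, and the sequences show how little sets the copies apart. On NCBI Build 37, Hba-a1 (ENSMUSG00000069919) lies at chr11:32183511-32184465 and Hba-a2 (ENSMUSG00000069917) at chr11:32196489-32197301, both on the forward strand with 12023 bases between them. Hbb-b1 (ENSMUSG00000052305) lies at chr7:110975048-110976610 and Hbb-b2 (ENSMUSG00000073940) at chr7:110961038-110962510, both on the reverse strand with 12537 bases between them. Each of the 4 genes has 3 exons. Alas2 (ENSMUSG00000025270) spans chrX:146981918-147005181 on the forward strand and has 11 exons.

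The coding sequences of Hba-a1 and Hba-a2 have 429 bases each and differ at 1 position (C381T, counted from 1 at the start codon, Hba-a1 base first), which leaves the amino acid the same. Those of Hbb-b1 and Hbb-b2 have 444 bases each and also differ at 1 position that leaves the amino acid the same (C417T, Hbb-b1 base first). The copies share unbroken runs of 380 and 416 bases in the coding sequence, so a read placed there could belong to either copy, and how the authors' counting split such reads is not given in the sources used here. The windows of 31 bases around each difference, at coding positions 366 to 396 for the alpha pair and 402 to 432 for the beta pair, are printed from the annotated transcripts with the differing base in capitals.
Hba-a1: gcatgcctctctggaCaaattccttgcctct
Hba-a2: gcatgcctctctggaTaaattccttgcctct
Hbb-b1: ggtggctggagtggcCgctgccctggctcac
Hbb-b2: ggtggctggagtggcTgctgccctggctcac

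The 250 bases before each gene's RefSeq start are shown as a description of the 5 genes. Their part in the levels of these libraries was not tested. The sequences come from RefSeq (GRCm38.p6 table, in which Hbb-b1 and Hbb-b2 are listed as Hbb-bs and Hbb-bt) and all 5 matched. They were placed on NCBI Build 37 by exact match, at chr11:32196242-32196491 for Hba-a2 (a sequence also found at Hba-a1), chr7:110976443-110976692 for Hbb-b1 (reverse strand), chr7:110962438-110962687 for Hbb-b2 (reverse strand) and chrX:146981710-146981959 for Alas2. Each is printed 5′ to 3′ on the gene's strand. Capitals mark 4 motifs searched on both strands, namely a GATA motif (AGATAA, with T allowed as its first and G as its last letter), the CACCC box, the CCAAT box and the TATAA box. In the Alas2 window a TATAA match overlaps its own match on the other strand.
Hba-a2: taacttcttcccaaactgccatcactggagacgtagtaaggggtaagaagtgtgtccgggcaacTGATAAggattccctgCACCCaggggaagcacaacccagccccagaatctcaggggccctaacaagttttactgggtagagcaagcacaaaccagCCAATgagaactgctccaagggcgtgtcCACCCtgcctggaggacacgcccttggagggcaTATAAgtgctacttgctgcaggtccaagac
Hbb-b1: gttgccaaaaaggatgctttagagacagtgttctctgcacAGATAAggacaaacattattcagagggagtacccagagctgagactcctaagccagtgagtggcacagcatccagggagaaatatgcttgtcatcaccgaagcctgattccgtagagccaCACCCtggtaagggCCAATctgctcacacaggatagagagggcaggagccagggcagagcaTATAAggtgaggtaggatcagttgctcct
Hbb-b2: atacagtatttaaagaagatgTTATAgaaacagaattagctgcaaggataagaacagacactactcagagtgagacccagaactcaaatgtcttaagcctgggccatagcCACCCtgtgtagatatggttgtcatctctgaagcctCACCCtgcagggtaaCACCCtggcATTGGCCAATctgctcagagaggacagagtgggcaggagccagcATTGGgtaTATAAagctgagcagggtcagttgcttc
Alas2: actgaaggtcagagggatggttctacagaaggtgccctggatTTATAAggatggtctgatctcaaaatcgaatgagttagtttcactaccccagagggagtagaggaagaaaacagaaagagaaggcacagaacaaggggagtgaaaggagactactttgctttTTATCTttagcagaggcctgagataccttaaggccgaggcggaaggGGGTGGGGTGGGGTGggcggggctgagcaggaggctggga

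The Hba-a1 window is offset from that of Hba-a2 by 3 bases and is the same in all 247 bases they share. The Hba-a2 and Hbb-b1 windows hold all 4 motifs, with TATAA beginning 30 and 29 bases before the start. The Hbb-b2 window holds CACCC 3 times, CCAAT 3 times on the 2 strands and TATAA 28 bases before the start and, on the opposite strand, 229 bases before it, but none of the GATA letters searched. The Alas2 window holds the GATA motif 86 bases before the start and CACCC 3 times on the opposite strand between 40 and 26 bases before the start, TATAA 207 bases before it, and no CCAAT. Among 32851 RefSeq windows of the same length, 26.5% held the GATA motif, 52.0% CACCC, 33.8% CCAAT and 22.8% TATAA, and 1.08% held all 4. These are matches of letters, and no binding was measured.

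Expression was given as FPKM, a count of fragments scaled to transcript length and to library size, which allows levels to be compared between genes per length. The order of the 5 levels was the same in all 8 libraries, with Hba-a2 highest, then Hba-a1, Hbb-b1, Hbb-b2 and Alas2. FPKM hold no read numbers, and relative depth estimated from the low values differed at most 1.23 times between libraries. Summed FPKM was 690247 to 1190435 in pericyte libraries, the top value being that of pericyte replicate 2, and 656405 to 737839 in SMC libraries. Pericyte and SMC levels were compared by limma on log2(FPKM + 1), a scale that shrinks fold changes of low genes, with q values adjusted over all 27414 genes. A gene was called at q below 0.05, and the study's stricter call also asks for a log2 fold change beyond 2. In bulk RNA, fewer cells of a type cannot be told apart from less RNA per cell.

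None of the 5 erythroid genes was called in either direction, and the pericyte and SMC values overlapped for all 5. Of all genes tested, 21.8% were called (10.6% higher in pericytes and 11.2% higher in SMCs), 5.89% passed the stricter call, and the groups overlapped for 75.4% and did not for 24.6%. All 5 fitted differences pointed to pericytes, with a median log2 fold change of 1.35 beside 0.02 over all genes tested, and with standard errors of 0.74 to 1.08. By limma, 0 of the 5 had an unadjusted p under 0.05.

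Hba-a1 was measured at 348, 1247, 307 and 37.02 FPKM in pericyte replicates 1 to 4 and at 156, 263, 69.2 and 49.6 FPKM in SMC replicates 1 to 4. Pericyte replicate 2 stood highest and pericyte replicate 4 lowest of all 8, so that the pericyte libraries enclosed the SMC libraries. The pericyte mean was 485 ± 527 FPKM and the SMC mean 134 ± 97.4 FPKM (SD, n = 4 each), a ratio of 3.61. The log2 fold change was 1.28 ± 1.07 (SE; 95% interval -1.24 to 3.80; limma, q = 0.510).

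Hba-a2, the other alpha-globin gene, had 439, 1519, 399.6 and 51.9 FPKM in pericyte replicates 1 to 4 and 226, 349.6, 72.6 and 54.0 FPKM in SMC replicates 1 to 4. The order of the libraries was the one seen for Hba-a1, and the lowest value was again in pericyte replicate 4. The pericyte mean was 602 ± 636 FPKM and the SMC mean 176 ± 139 FPKM (SD, n = 4 each). The log2 fold change was 1.36 ± 1.08 (SE; 95% interval -1.18 to 3.91; limma, q = 0.482).

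Hbb-b1, the more abundant of the beta-globin genes, had 183, 648, 214 and 29.0 FPKM in pericyte replicates 1 to 4 and 87.4, 153, 41.9 and 17.8 FPKM in SMC replicates 1 to 4. Here SMC replicate 4 was the lowest library and pericyte replicate 4 the next lowest, and each pericyte library lay above the SMC library of its number. The pericyte mean was 268 ± 266 FPKM and the SMC mean 75.2 ± 59.7 FPKM (SD, n = 4 each). The log2 fold change was 1.53 ± 1.03 (SE; 95% interval -0.89 to 3.95; limma, q = 0.391).

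Hbb-b2 had 56.7, 191, 61.9 and 6.56 FPKM in pericyte replicates 1 to 4 and 31.7, 45.8, 11.9 and 5.32 FPKM in SMC replicates 1 to 4. It followed Hbb-b1 at a lower level, with the lowest values in the replicates numbered 4 of both groups. The pericyte mean was 78.9 ± 78.5 FPKM and the SMC mean 23.7 ± 18.5 FPKM (SD, n = 4 each). The log2 fold change was 1.35 ± 1.07 (SE; 95% interval -1.16 to 3.85; limma, q = 0.480).

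Alas2, which supplies the first heme precursor in red cell precursors, had 7.32, 15.8, 5.80 and 0.523 FPKM in pericyte replicates 1 to 4 and 2.33, 5.95, 2.78 and 1.06 FPKM in SMC replicates 1 to 4. It was far below the globins in every library and again highest in pericyte replicate 2 and lowest in pericyte replicate 4. The pericyte mean was 7.37 ± 6.34 FPKM and the SMC mean 3.03 ± 2.08 FPKM (SD, n = 4 each). The log2 fold change was 0.75 ± 0.74 (SE; 95% interval -0.99 to 2.49; limma, q = 0.577).

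**Figure D1:**
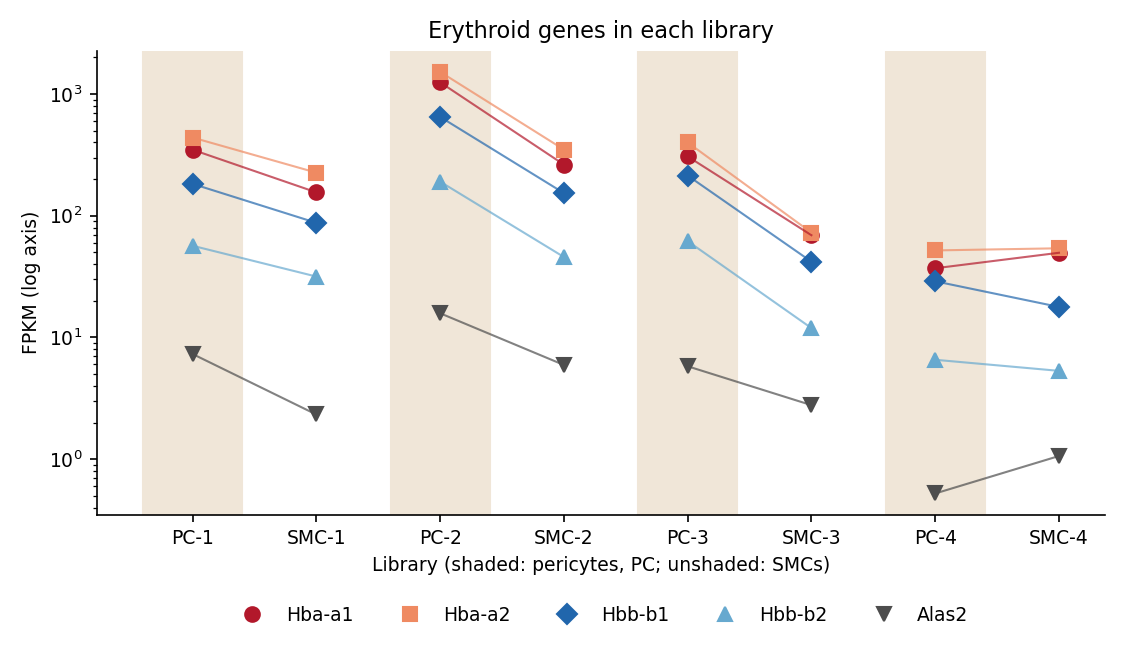
FPKM of the 5 erythroid genes (log axis) in each pericyte library (PC, shaded) and SMC library, with lines joining libraries of the same number. All 5 genes are highest in PC-2, and the lines slope down from PC to SMC for numbers 1 to 3 but not for every gene of number 4.

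The size of each difference rested on single libraries. Leaving out pericyte replicate 2 lowered the log2 fold change to 0.54 for Hba-a1, 0.65 for Hba-a2, 0.88 for Hbb-b1, 0.68 for Hbb-b2 and 0.27 for Alas2. Leaving out pericyte replicate 4 raised it to 2.22, 2.27, 2.35, 2.24 and 1.42 in the same order. No q fell below 0.05 in any of the 8 limma fits that left out a library.

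Variation among replicates of 1 group was wide. The highest pericyte library had 33.7 times the lowest for Hba-a1, 29.3 times for Hba-a2, 22.4 times for Hbb-b1, 29.1 times for Hbb-b2 and 30.2 times for Alas2. In SMCs the same ratios ran from 5.30 for Hba-a1 to 8.61 for Hbb-b1 and Hbb-b2. On the log2(FPKM + 1) scale the SD over pericyte libraries was 1.46 for Alas2 and 1.84 to 2.09 for the globins, beside a median of 0.44 over the 13612 genes averaging 1 FPKM or more. In SMCs it was 0.72 for Alas2 and 1.08 to 1.32 for the globins, beside a median of 0.33. Between 98.4% and 99.4% of those genes had a smaller SD than the erythroid genes in pericytes, and 87.5% to 97.8% did in SMCs.

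Same-numbered libraries were then set side by side, although no source states that a shared number marks shared mice or sorts. The pericyte library was higher in 4 of 4 pairs for Hbb-b1 and Hbb-b2 and in 3 of 4 pairs for Hba-a1, Hba-a2 and Alas2. Of all genes tested, 18.9% were higher in the pericyte library of all 4 pairs. The differences in log2(FPKM + 1), pericyte minus SMC, were 0.82 to 1.32 over the 5 genes for number 1, 1.27 to 2.24 for number 2 and 0.85 to 2.44 for number 3. For number 4 they ran from -0.44 to 0.67, with 2 of 5 genes, Hbb-b1 and Hbb-b2, higher in pericytes. The pair numbered 4 thus held the 3 differences below 0, of -0.41 for Hba-a1, -0.06 for Hba-a2 and -0.44 for Alas2.

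**Figure D2:**
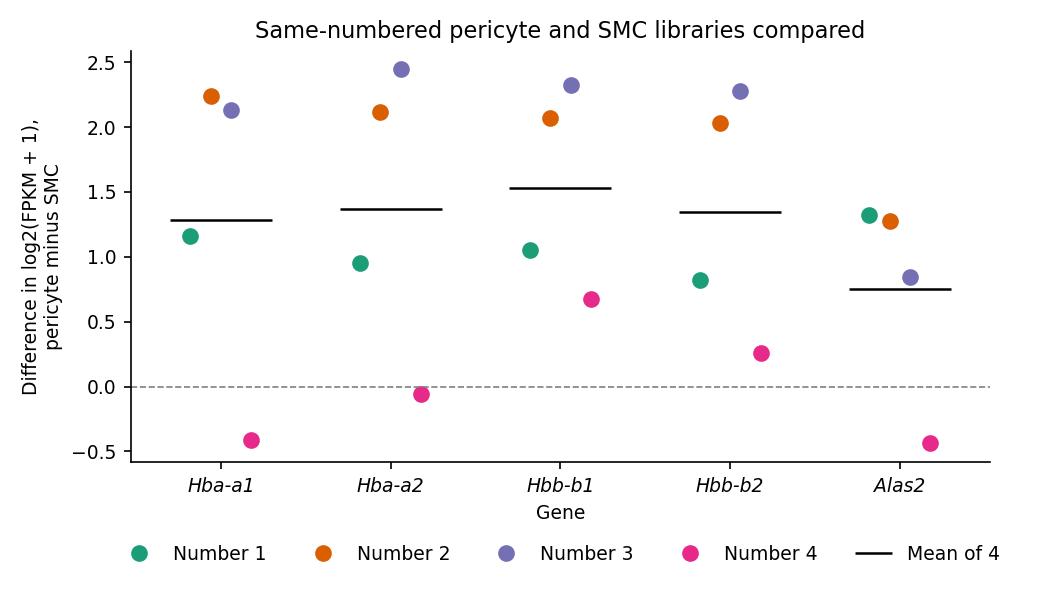
Difference in log2(FPKM + 1) between the pericyte and the SMC library of the same number for each erythroid gene, with the mean of the 4 differences as a bar. Numbers 1 to 3 lie above 0 for all 5 genes and number 4 lies between -0.44 and 0.67.

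The 4 adult globins together reached 1026, 3605, 982 and 124 FPKM in pericyte replicates 1 to 4 and 501, 812, 196 and 127 FPKM in SMC replicates 1 to 4. Pericyte replicate 2 held 29.0 times the sum of pericyte replicate 4, and the replicates numbered 4 held the lowest sum of each group. The pericyte sum was 2.05 times that of the SMC library for number 1, 4.44 times for number 2, 5.02 times for number 3 and 0.981 times for number 4. Scaled to a common sum per library, the ratio for number 2 was 2.45, as pericyte replicate 2 had the highest summed FPKM, the other 3 were 2.19, 4.89 and 0.877, and the range over pericyte libraries was 19.0 times. Of all summed FPKM, globins made up 0.0159% to 0.303% in pericyte libraries and 0.0181% to 0.124% in SMC libraries.

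While the sum ranged widely, its make-up ranged little. Hba-a1 made up 29.8% to 39.1% of the globin FPKM over the 8 libraries, Hba-a2 37.1% to 45.1%, Hbb-b1 14.1% to 23.3% and Hbb-b2 4.197% to 6.32%. The ratio of alpha to beta FPKM lay between 2.50 and 3.30 in pericyte libraries and between 2.63 and 4.48 in SMC libraries, the highest value being that of SMC replicate 4. Hba-a2 was 1.05 to 1.45 times Hba-a1, and Hbb-b1 was 2.76 to 4.41 times Hbb-b2, ratios that also carry the unknown split of shared reads. The globin sum was 140 to 238 times Alas2 in pericyte libraries and 70.3 to 215 times Alas2 in SMC libraries.

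**Figure D3:**
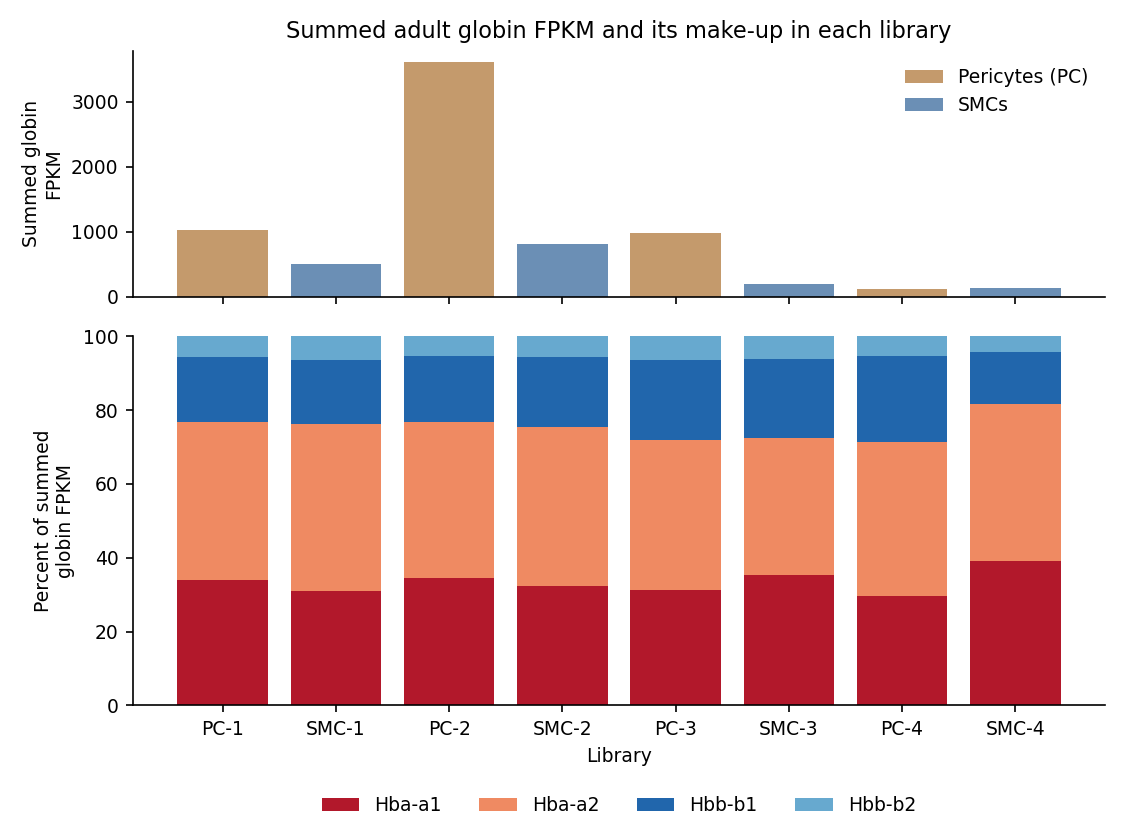
Upper panel, summed FPKM of the 4 adult globins in each pericyte library (PC) and SMC library, from 124 to 3605. Lower panel, the percent of that sum from each gene, in which Hba-a2 takes the largest share in every library (37.1% to 45.1%) and Hbb-b2 the smallest (4.197% to 6.32%).

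The genes whose pattern was most like that of the globin sum were ranked by Pearson correlation of log2(FPKM + 1) over the 8 libraries, among the 13608 genes other than the 4 adult globins that average 1 FPKM or more. Alas2 came at rank 5, with r = 0.96. The others of the first 10 were Ythdf1, Exog, Fbxo7, Moap1, Gm5879, Foxred1, Snora73b, Hist1h2ac and Purb, with r from 0.95 to 0.97. With only 8 libraries, which share depth and handling, such values are a description, given without a p. The ranking used FPKM not scaled to a common sum. Summed FPKM was 1190435 in pericyte replicate 2, the library with most globin, beside 690247 to 782014 in the other pericyte libraries. How far the ranked genes follow that scale was not tested. Their ranges differed, with Fbxo7 at 25.5 to 40.3 FPKM and Snora73b at 14.9 to 153 FPKM over all 8 libraries. When the group means were removed first, the 10 highest were Lrr1, Nlk, Ppp2r2d, Rsph1, Slc25a43, Csnk1g3, AC027184.1, Prdm11, Kpnb1 and Gm12976, with r from 0.97 to 0.99, and Alas2 had r = 0.96.

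Gata1, Klf1 and Slc4a1, which mark red cells and their precursors, were low, and not all of them followed the globins. Gata1 and Klf1, transcription factors that drive globin genes in red cell precursors, reached at most 0.798 and 1.63 FPKM in any library, and Gata1 was listed at 0 in 3 of 8. Slc4a1, the band 3 anion exchanger of the red cell membrane, reached 1.71 FPKM in pericyte replicate 3 and at most 0.525 FPKM elsewhere. Over the 8 libraries the correlation with the globin sum was 0.79 for Klf1, 0.32 for Gata1 and -0.06 for Slc4a1. Thus the data show globin and Alas2 transcripts with these 3 red cell defining genes at low levels, and name no red cell population. In the lists below, 4 of 12 regulators, 6 of 17 membrane rows and 2 of 11 cytosol genes stayed below 1 FPKM in every library. Other listed genes were higher. Nfe2 reached 13.3 FPKM in pericyte replicate 2, and Car1, named after its values were seen, 9.52 FPKM in pericyte replicate 1. Ahsp was not analysed here.

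Embryonic globins were at or near 0. Of 9 rows, Hba-x and Hbb-bh2 were listed at 0 in all 8 libraries, Hbb-y reached 0.346 FPKM in pericyte replicate 2 and was listed at 0 elsewhere, and Hbb-bh1 reached at most 0.235 FPKM. Hbq1b, a theta-globin gene, stayed at or under 0.764 FPKM, and Mb, the myoglobin of muscle fibers, at or under 1.29 FPKM. Of 7 rows tested, none was called for pericytes and 2 were called higher in SMCs. Cygb, a globin of fibroblasts and other connective tissue cells, was at 3.28 to 5.72 FPKM in pericytes and 29.0 to 73.2 FPKM in SMCs (log2 fold change -3.27 ± 0.30, SE; limma, q = 0.000351). Of 5 fibroblast markers, Pdgfra, Lum, Col1a1 and Col3a1 were also higher in SMCs, and the list summed to 3160 to 4846 FPKM there, beside 782 to 1586 FPKM in pericytes. Dcn, the proteoglycan decorin, went the other way, at 509 to 1165 FPKM in pericytes and listed at 0 in all 4 SMC libraries. The part of fibroblasts in the Cygb values was not tested. Ngb, the neuronal globin, had a log2 fold change of -0.85 ± 0.24 (SE; limma, q = 0.0421) at levels under 2 FPKM. With 1 library left out its q ran from 0.0114 to 0.104 and stayed below 0.05 only without SMC replicate 3. Mb had a log2 fold change of -0.52 (limma, q = 0.116, and 0.0482 without pericyte replicate 4).

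Heme synthesis was measured through 9 enzymes, Alas2 included, of which none was called for pericytes and 2 were called higher in SMCs (median log2 fold change -0.02). Fech, which inserts iron to finish the heme ring, was at 16.3 to 25.7 FPKM in pericytes and 41.1 to 57.8 FPKM in SMCs (log2 fold change -1.22 ± 0.16, SE; limma, q = 0.00158). Alas1, the form of the first enzyme used in most tissues, was at 42.9 to 57.1 FPKM in pericytes and 61.9 to 85.9 FPKM in SMCs (log2 fold change -0.53 ± 0.13, SE; limma, q = 0.0263). Its q ran from 0.0229 to 0.0661 with 1 library left out and stayed below 0.05 without SMC replicate 2, pericyte replicate 1 or pericyte replicate 4. In every library Alas1 exceeded Alas2 in FPKM. Alad and Urod, which act at middle steps, had log2 fold changes of 0.20 (limma, q = 0.651) and -0.15 (limma, q = 0.739).

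Among 8 carriers of iron and heme, 3 were higher in pericytes and 2 in SMCs (median log2 fold change 0.11). Tfrc, the transferrin receptor that brings iron into cells, was at 18.9 to 29.1 FPKM in pericytes and 8.02 to 10.2 FPKM in SMCs (log2 fold change 1.25 ± 0.15, SE; limma, q = 0.00132). Slc25a38, the mitochondrial carrier of the glycine used for heme, had a log2 fold change of 0.57 ± 0.14 (SE; limma, q = 0.0226). The third was Slc25a37, mitoferrin-1, named after its values were seen, at 0.49 ± 0.14 (SE; limma, q = 0.0435), whose q ran from 0.0242 to 0.105 with 1 library left out and stayed below 0.05 only without pericyte replicate 4. With 1 library left out the q of Slc25a38 ran from 0.0190 to 0.0619 and stayed below 0.05 without SMC replicate 1 or pericyte replicates 2, 3 or 4. Scaled to a common sum, the q values of Slc25a38 and Slc25a37 were 0.141 and 0.483 by limma. Slc48a1, which moves heme out of lysosomes, had a log2 fold change of -1.11 ± 0.21 (SE; limma, q = 0.00803). Abcb10, a mitochondrial transporter of heme synthesis, had -0.68 ± 0.10 (SE; limma, q = 0.00294). Slc25a39 and Abcb6 had log2 fold changes of -0.27 (limma, q = 0.613) and -0.36 (limma, q = 0.337).

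Of 7 genes for heme breakdown and scavenging, none was called for pericytes and 2 were called higher in SMCs (median log2 fold change -0.42). Hmox1, the inducible heme oxygenase, was at 21.9 to 63.4 FPKM in pericytes and 162 to 225 FPKM in SMCs (log2 fold change -2.35 ± 0.33, SE; limma, q = 0.00225). Cd163, the macrophage receptor that takes up hemoglobin bound to haptoglobin, had a log2 fold change of -0.90 ± 0.15 (SE; limma, q = 0.00466) at 0.297 to 0.703 FPKM in pericytes and 1.43 to 2.45 FPKM in SMCs. Blvrb, a biliverdin reductase also abundant in red cells, had -0.81 (limma, q = 0.106, and 0.00366 without pericyte replicate 2), and Hmox2, the constitutive heme oxygenase, had 0.05 (limma, q = 0.900). The count called higher in SMCs was 3 without SMC replicate 4 and 4 without pericyte replicate 2.

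The 12 erythroid regulators held 3 genes higher in pericytes and 1 higher in SMCs (median log2 fold change 0.27). Myb, a factor of blood progenitors and lymphocyte precursors, was at 9.93 to 14.7 FPKM in pericytes and 0.125 to 1.08 FPKM in SMCs (log2 fold change 3.20 ± 0.22, SE; limma, q = 9.97e-05). Bcl11a, which silences fetal globin in red cell precursors and is also a B cell factor, was at 6.02 to 9.68 FPKM in pericytes and 0.346 to 0.899 FPKM in SMCs (log2 fold change 2.53 ± 0.16, SE; limma, q = 7.44e-05). Ldb1, an adaptor used by globin enhancers and in many other tissues, had 0.90 ± 0.24 (SE; limma, q = 0.0364), which stayed below 0.05 without pericyte replicates 2, 3 or 4 and ran up to 0.0924 without another library, and was 0.0796 after quantile scaling. Epor, the erythropoietin receptor, had -0.65 ± 0.11 (SE; limma, q = 0.00627) at levels of at most 1.51 FPKM. Nfe2 and Lmo2 had log2 fold changes of 1.46 (limma, q = 0.0655, and 0.0206 without pericyte replicate 4) and -0.12 (limma, q = 0.875). The count called higher in pericytes was 4 without pericyte replicate 4 and 2 without pericyte replicate 1 or any of the SMC libraries, and that for SMCs was 2 without SMC replicate 1 or pericyte replicate 3.

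For the red cell membrane and its skeleton, 16 rows were tested, of which none was called for pericytes and 2 were called higher in SMCs, and 6 of 17 rows stayed below 1 FPKM in every library (median log2 fold change -0.09). Aqp1, a water channel of red cells and also of blood vessel lining, was at 16.2 to 56.3 FPKM in pericytes and 139 to 500.3 FPKM in SMCs (log2 fold change -3.43 ± 0.55, SE; limma, q = 0.00423). Epb4.9, the actin bundler dematin, had -1.20 ± 0.30 (SE; limma, q = 0.0270), with q up to 0.0717 with 1 library left out and below 0.05 without SMC replicates 1 or 2 or pericyte replicates 2 or 4. Epb4.1, protein 4.1 of the skeleton, had 1.97 (limma, q = 0.0615, and 0.0250 without pericyte replicate 2), and Gypc, glycophorin C, had -0.20 (limma, q = 0.713). The count called higher in pericytes was 1 without pericyte replicate 1 or 2, and that for SMCs was 3 without pericyte replicate 2.

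Of 11 genes of the red cell cytosol, 1 was higher in pericytes and none was called higher in SMCs (median log2 fold change 0.11). It was Car2, a carbonic anhydrase of red cells and many other cells, at 36.0 to 73.0 FPKM in pericytes and 4.61 to 11.3 FPKM in SMCs (log2 fold change 2.57 ± 0.31, SE; limma, q = 0.00117). Gpx1, a peroxide remover, and Bnip3l, which clears mitochondria from maturing red cells, had log2 fold changes of 0.29 (limma, q = 0.617) and 0.11 (limma, q = 0.810). Without pericyte replicate 4 the count called higher in pericytes was 2.

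**Figure D4:**
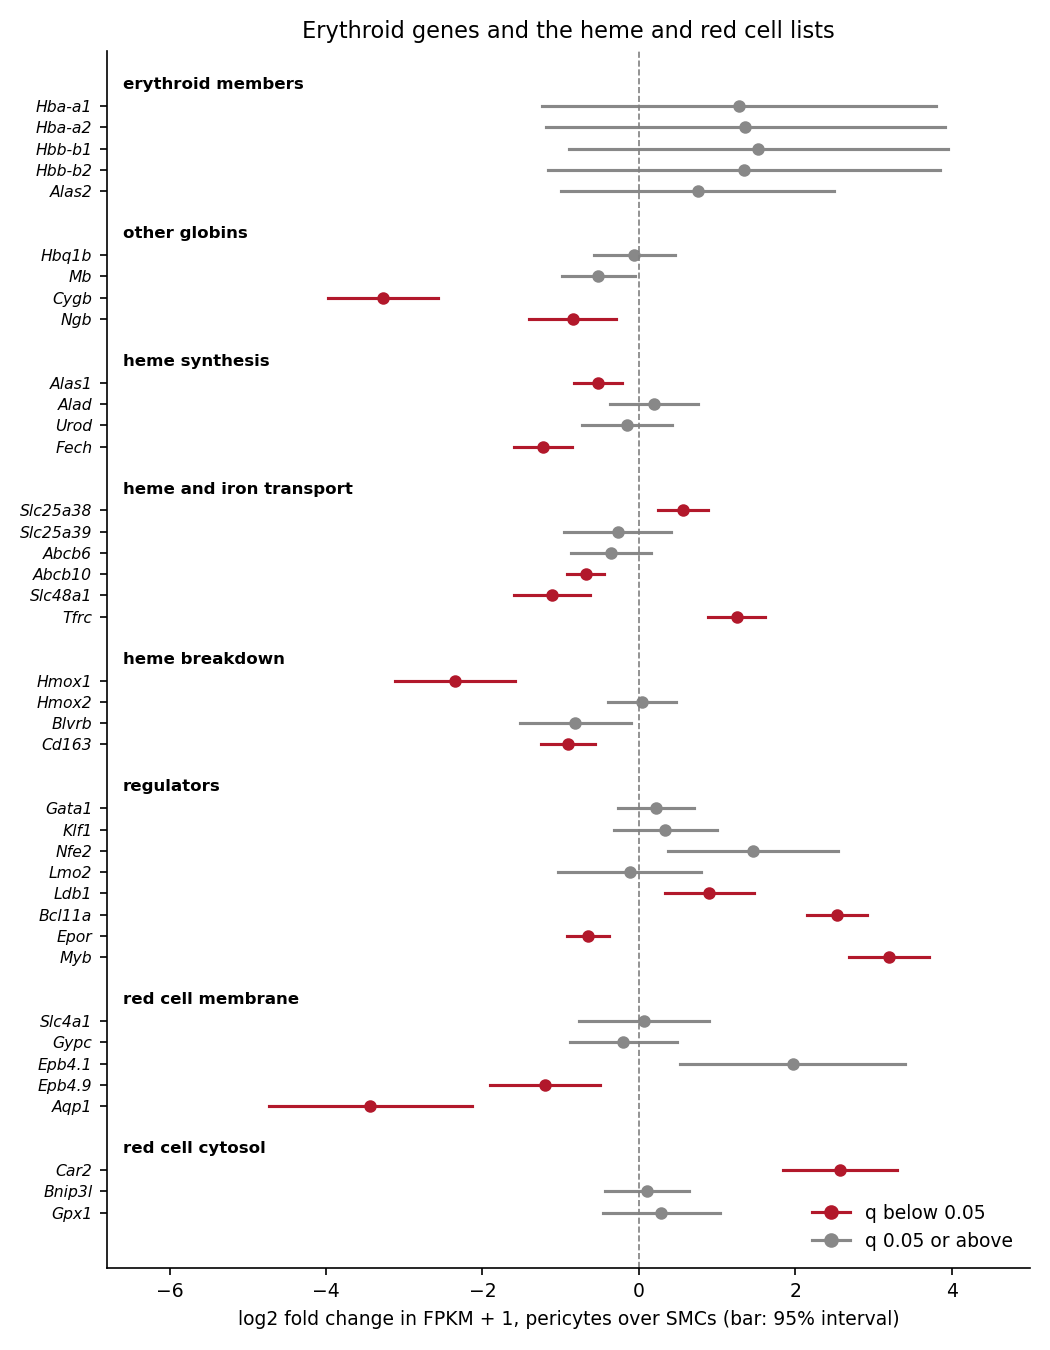
Log2 fold change in FPKM + 1, pericytes over SMCs, with 95% intervals from limma for the 5 erythroid genes and the named genes of the heme and red cell lists. Intervals in red have q below 0.05, and all 5 erythroid intervals are grey and cross 0.

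Markers of other blood cells also differed between libraries and groups. The 12 neutrophil markers summed to 1437 to 6273 FPKM in pericyte libraries and 319 to 3868 FPKM in SMC libraries, 2 of them were higher in pericytes and none was called higher in SMCs. S100a8, a calcium-binding protein of mature neutrophils, had 277, 2202, 1968 and 476 FPKM in pericyte replicates 1 to 4 and 1312, 1642, 712 and 126 FPKM in SMC replicates 1 to 4 (limma, q = 0.841), and S100a9, its partner, had a log2 fold change of 0.32 (limma, q = 0.864). S100a8 was highest in replicate 2 of both groups, as the globins were, and lowest in pericyte replicate 1 and SMC replicate 4. The neutrophil values were not scaled to a common sum per library. Summed FPKM was 1190435 in pericyte replicate 2 and 718523 in pericyte replicate 3. Which of these held the larger neutrophil share is therefore not shown by the order of the FPKM. Among pericyte libraries, Camp, Lcn2, Mpo and Elane were also highest in replicate 2. S100a9, Ngp, Ltf, Retnlg, Mmp8, Mmp9 and Csf3r were instead highest in pericyte replicate 3. Mpo and Elane, granule enzymes of neutrophil precursors, had log2 fold changes of 5.37 ± 0.96 (SE; limma, q = 0.00688) and 4.82 ± 1.19 (SE; limma, q = 0.0257). For Elane q ran up to 0.0644 with 1 library left out and stayed below 0.05 without SMC replicates 1 or 2 or pericyte replicate 4. Without pericyte replicate 3, 1 neutrophil marker was called higher in SMCs.

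The 10 platelet markers tested held 2 that were higher in SMCs and none called higher in pericytes, and all 11 summed to 5.36 to 39.7 FPKM in pericyte libraries and 48.8 to 131.5 FPKM in SMC libraries. Gp6 was listed at 0 in all 8. Itga2b and Pf4, the integrin chain and chemokine of platelets, had log2 fold changes of -2.26 ± 0.26 (SE; limma, q = 0.00101) and -2.53 ± 0.65 (SE; limma, q = 0.0296), the latter with q up to 0.0778 with 1 library left out and below 0.05 without SMC replicates 3 or 4 or pericyte replicate 2. Ppbp and Clec1b, also platelet genes, had 0.62 (limma, q = 0.550) and -0.50 (limma, q = 0.349).

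Of 7 T cell markers 6 were higher in pericytes, where the list summed to 1892 to 3441 FPKM, beside 31.8 to 62.1 FPKM in SMCs. All 5 B cell markers were higher in pericytes, at 793 to 1977 FPKM beside 9.53 to 30.8 FPKM in SMCs. In pericytes the T cell and B cell sums were highest in replicate 2 and lowest in replicate 4, as the globin sum was. These 2 list sums were not scaled to a common sum per library. Pericyte replicate 2 had the highest summed FPKM, 1190435 beside 690247 to 782014 in the other pericyte libraries. Its peak is therefore not shown to be a larger T cell or B cell share of the library. In SMCs the T cell sum was highest in replicate 4 and the B cell sum in replicate 2. Of 8 macrophage markers 6 were higher in SMCs, at 475 to 742 FPKM beside 86.0 to 231 FPKM in pericytes. Of 6 endothelial markers Pecam1, Cdh5, Tek and Egfl7, named after their values were seen, were higher in SMCs, at 256 to 852 FPKM for the list beside 63.2 to 121 FPKM in pericytes. With 1 library left out the count of endothelial markers ran from 3 to 6, the latter without SMC replicate 1, and that of macrophage markers was 5 or 6. The sort had removed cells that stained for CD45, a protein of all white blood cells, or CD31, the product of Pecam1. The 8 mural markers, defining for both sorted groups, were all detected and summed to 571 to 1869 FPKM in pericyte libraries and 1739 to 5532 FPKM in SMC libraries. The 8 muscle fiber markers summed to 14.6 to 28.8 FPKM in pericyte libraries and 23.0 to 40.5 FPKM in SMC libraries, ranges that overlap. The part of these other cells in the globin values was not tested.

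**Figure D5:**
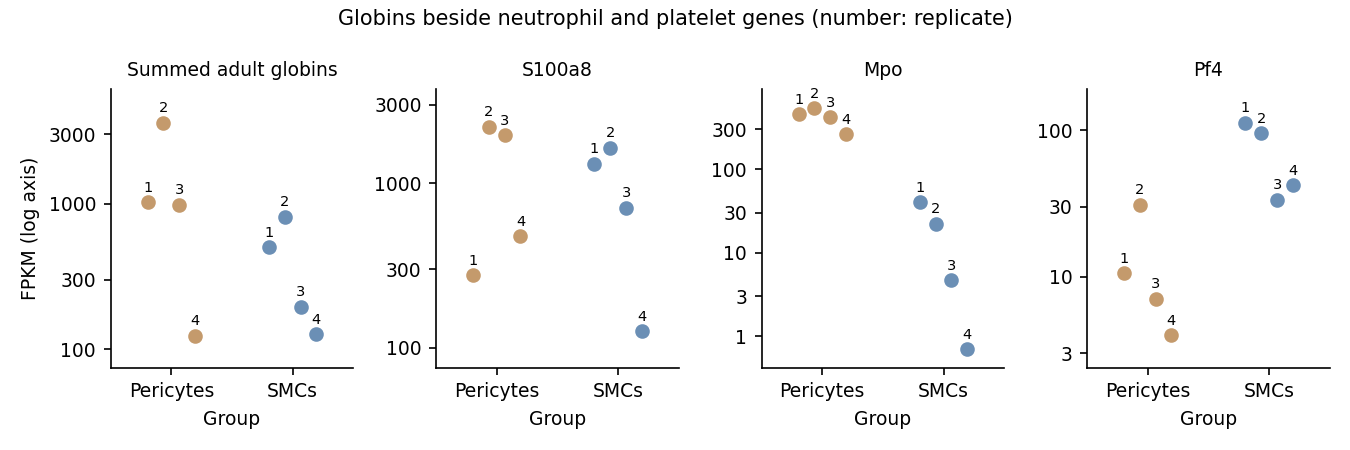
FPKM (log axes, 1 panel per quantity) of the summed adult globins, S100a8 and Mpo of the neutrophil list and Pf4 of the platelet list in the 4 pericyte and 4 SMC libraries, each point numbered by replicate. The globin and S100a8 groups overlap, Mpo is higher in all 4 pericyte libraries and Pf4 in all 4 SMC libraries.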

How the data were processed

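The authors aligned paired reads to mouse NCBI Build 37 with Bowtie2 and TopHat and an Ensembl annotation, after FastQC, and deposited FPKM per gene for 8 libraries (SMART-Seq amplification, Nextera XT). The FPKM were not filtered or log transformed. Strand use and the handling of reads shared by gene copies are not given in the sources used here. All 8 value columns matched a sample title, and 0 columns were left unmapped. FPKM hold no read counts, so no counting error is given, and relative depth came from values under 0.3 FPKM.

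From the deposited FPKM, log2(FPKM + 1) was compared with limma 3.58.1 (lmFit, eBayes) in R 4.3.3 over 27414 genes, with Benjamini-Hochberg q values. In simulated data for this comparison on 27414 genes, 66 of 100 genes changed by 2 log2 units and 93 of 100 changed by 4 were recovered, with 9 unchanged genes called. The changed genes were drawn at random, each with its own SD. The globins varied more than most genes (pericyte SD 1.84 to 2.09, beside a median of 0.44). These shares therefore do not say how often a globin difference would be found. Sequences, sums and figures were made in Python 3.11.15 (pandas 2.3.3, numpy 2.4.6, matplotlib 3.10.9, Biopython 1.88).

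The members and gene lists were chosen with earlier results of these data known. Named were the 5 members, up to 4 genes with the largest fold change that passed and up to 2 with the highest FPKM that did not in each heme, red cell, platelet and neutrophil list, 5 red cell markers (2 of them not reported here), and the 10 genes most like the globin sum by each measure. The alternatives were another pseudocount, a floor of 1 FPKM in 4 or more libraries, all listed genes, quantile scaling, scaling to a common sum (TPM) with and without globins, the replicate block, replicates 1 and 2 against 3 and 4 as a covariate, an intensity trend, and each library left out. For the lists, the scalings and the fits that left out a library were chosen after seeing the data. Proteins, muscle staining and brain libraries were not analysed here.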

Additional observations from a re-analysis of the deposited data

Results flagged for a closer look

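Dixon's test was applied to 136 groups of 4 libraries, of the erythroid genes, the globin sum and the other genes named. In 3 groups a value stood apart from the rest (gap to the nearest library over the whole range, against the 95% critical value). Chance would give such a gap in about 1 in 20 groups. No erythroid gene was among the 3. Slc4a1 was highest in pericyte replicate 3, at 1.71 FPKM beside at most 0.0430 FPKM in the others, with a ratio of 0.958. Ldb1 was lowest in SMC replicate 4, at 3.98 FPKM beside 5.41 to 5.57 FPKM, with a ratio of 0.914. Clec1b was highest in pericyte replicate 3, at 1.15 FPKM beside 0.212 to 0.307 FPKM, with a ratio of 0.869.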

How the results depend on the processing

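All 17 alternatives for each erythroid gene kept the higher fitted level in pericytes. With each library left out in turn, log2 fold changes ran from 0.54 to 2.22 for Hba-a1, 0.65 to 2.27 for Hba-a2, 0.88 to 2.35 for Hbb-b1, 0.68 to 2.24 for Hbb-b2 and 0.27 to 1.42 for Alas2, with q from 0.0958 to 0.841. With the replicate number as a block, Hbb-b1 was past the threshold (log2 fold change 1.53, limma, q = 0.0428), so 1 of 5 genes was called higher in pericytes, beside 2978 of all 27414, and the other 4 had q from 0.0940 to 0.230. Over 13612 genes the deviations of same-numbered libraries correlated at 0.0794 to 0.474 (mean 0.327, 4 pairs), and 5 of 8 libraries correlated best with their own number. As 1 pair was under 0.1 and no source says what a number marks, the block was not used for the main values, and whether same-numbered libraries share mice or sorts is unknown. The block moved the genes called higher in SMCs from 2 to 1 for the other globins, 1 to 2 for the regulators, 0 to 1 for muscle fibers, 4 to 6 for endothelial and 1 to 3 for mural markers. It moved those higher in pericytes from 0 to 1 for the red cell membrane, 3 to 2 for carriers (Slc25a37, limma, q = 0.0885), 3 to 4 for regulators (Nfe2, limma, q = 0.00408), 2 to 3 for neutrophils and 6 to 7 for T cells. Epb4.9 lost its call (limma, q = 0.0695), with the count of its list still 2. Scaling to a common sum (TPM) lowered the share of calls higher in pericytes from 48.8% to 36.2% and moved the median log2 fold change of genes averaging 1 FPKM or more from 0.05 to -0.16. Under it the erythroid genes had 1.04, 1.13, 1.30, 1.13 and 0.56, the carriers higher in pericytes went from 3 to 1 (also 1 under quantile scaling), breakdown genes higher in SMCs from 2 to 4, mural markers from 1 to 3 (2 under quantile scaling), and the globin sum of SMC replicate 2 from 812 to 1237. Among named genes of the lists that were not called, Alad, Hmox2 and Bnip3l changed sign under it. This does not cover the genes named for their likeness to the globin sum. The cause of these changes was not tested. Read numbers are unknown, so no counting error can be set beside low values.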
